A study of Saccharomyces cerevisiae with 8 samples.

Results

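Loss of PEX19 was examined in budding yeast (Saccharomyces cerevisiae, laboratory strain W303) by setting a pex19 deletion strain against the wild type. Each strain was measured by RNA-seq and by ribosome profiling, which sequences the mRNA fragments that ribosomes protect (ribosome-protected fragments, RPF). A gene entered the comparison when its mean over the 4 genotypes of the study was at least 50 reads in both assays, which kept 3737 of the 6668 listed genes and left 2931 out. The wild type carried PEX19 and MSP1, the pex19 deletion lacked PEX19, and the study's remaining genotypes lacked MSP1, alone or together with PEX19. All 4 genotypes were in the W303 background and were cultured in synthetic complete medium whose carbon sources were 2% glycerol and 2% ethanol. Cultures of 500 mL were started at an optical density of 0.1 and collected after 16 h at 2 to 2.5. Each genotype had 1 library per assay, and the sources used here do not say how many clones or cultures stood behind a strain.

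PEX19 is a cytosolic chaperone and receptor that binds newly made peroxisomal membrane proteins and hands them to PEX3 in the membrane. Without it yeast cells fail to form normal peroxisomes, enzymes of the peroxisome matrix stay in the cytosol, and some peroxisomal membrane proteins reach mitochondria instead. Peroxisomes are the only site of fatty acid beta-oxidation in yeast, and they hold part of the glyoxylate cycle, by which cells on ethanol or acetate build sugars and amino acids from acetyl units. The title of the study names Zellweger spectrum disorder, an inherited failure of peroxisome assembly, and dysfunction of mitochondria in it. The comparison addressed which genes differ in mRNA and in ribosome occupancy when PEX19 is lost alone.

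The RNA-seq libraries of all genotypes held 4694951 to 5367091 reads, with the lowest total in the pex19 deletion, and the RPF libraries held 1101458 to 2300792, with the highest total there. A measured gene had a median of 676 RNA-seq reads in wild type against 583 in the pex19 deletion, and of 169 and 187 RPF reads. The RNA-seq library of the pex19 deletion stood apart from the other 3, with 783 genes listed at the lowest value of 1 read against 511 to 528. Its deposited TPM values also left 8.86% outside the listed genes, against up to 18.6% in the other RNA-seq libraries. The spread of its log2 ratios to wild type (scaled median absolute deviation) was 0.298, against 0.188 for the msp1 and 0.191 for the double deletion in RNA-seq. The part of these library properties in any result below was not tested.

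Ratios are given as log2 of pex19 deletion over wild type after scaling within the assay, so that 1 is 2-fold higher and −1 is 2-fold lower. Over all 3737 genes the median was 0.01 in both assays. In RNA-seq 51.2% of genes lay above 0 and 48.8% below, and in RPF 51% and 49%. With 1 library a side no replicate spread exists and no test was run. Ranges in brackets are exact 95% intervals of the counts alone, and a difference between the strains cannot be told apart from one between single cultures or libraries.

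PEX19 itself (YDL065C, chromosome IV, 336249 to 337277, 1 coding exon) was read in wild type, with 387 RNA-seq and 216 RPF reads. In the pex19 deletion it was listed at 1 in both assays, the value an unread gene has in these tables, and so matched the label. With 3 reads as the limit for an unread gene, it was at least 109-fold lower by RNA-seq and at least 77.9-fold lower by footprints. UBC9 (YDL064W, chromosome IV, 337487 to 338070), which encodes the SUMO-conjugating enzyme, is the next gene and is transcribed away from PEX19. It had 234 RNA-seq reads in wild type against 614 in the pex19 deletion, and 142 and 283 RPF reads. Its ratio was 1.63 (1.41 to 1.85) in RNA-seq and 0.88 (0.58 to 1.18) in RPF. Both strains without PEX19 were high, since the double deletion had 527 RNA-seq and 185 RPF reads against 198 and 71 in the msp1 deletion. MSP1 (YGR028W), the ATPase that extracts misplaced tail-anchored proteins from the outer mitochondrial membrane, had 731 and 607 RNA-seq reads, wild type before the pex19 deletion, and 122 and 175 RPF reads.

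At least 2-fold lower in both assays were 7 genes (0.187% of those measured), and 1 gene was at least 2-fold higher in both (0.0268%). The 7 were PEX19, the zinc-response genes ADH4, ZRT1, ZPS1 and ZAP1, the cytochrome c gene CYC7 and ULI1, and the single higher gene was DPA10 (YLR307C-A). In RNA-seq alone 45 genes were 2-fold lower (1.2%) and 11 were 2-fold higher (0.294%). In RPF the counts were nearly even, with 10 lower (0.268%) and 9 higher (0.241%). The 9 higher genes had a median of only 46 wild-type RPF reads. PHO5 and SAM35 among them met the minimum only through the pex19 library, with 126 and 102 reads against 42 to 48 and 24 to 72 elsewhere. The uneven RNA-seq split stayed under library totals (49 lower and 9 higher), TMM over all listed genes (46 and 11) and DESeq2 size factors (45 and 12). It was lost only with the deposited TPM values, which gave 27 lower and 26 higher. The TPM values moved the median RNA-seq ratio of all genes from 0.0106 to 0.113 and the RPF median from 0.0067 to 0.0573, and ZAP1 then no longer passed 2-fold in both. At 1.5-fold, 202 genes were lower (5.41%) and 140 higher (3.75%) in RNA-seq, and 70 were lower (1.87%) and 109 higher (2.92%) in RPF. In both assays 18 genes were lower (0.482%) and 18 were higher (0.482%) at that fold.

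**Figure D1:**
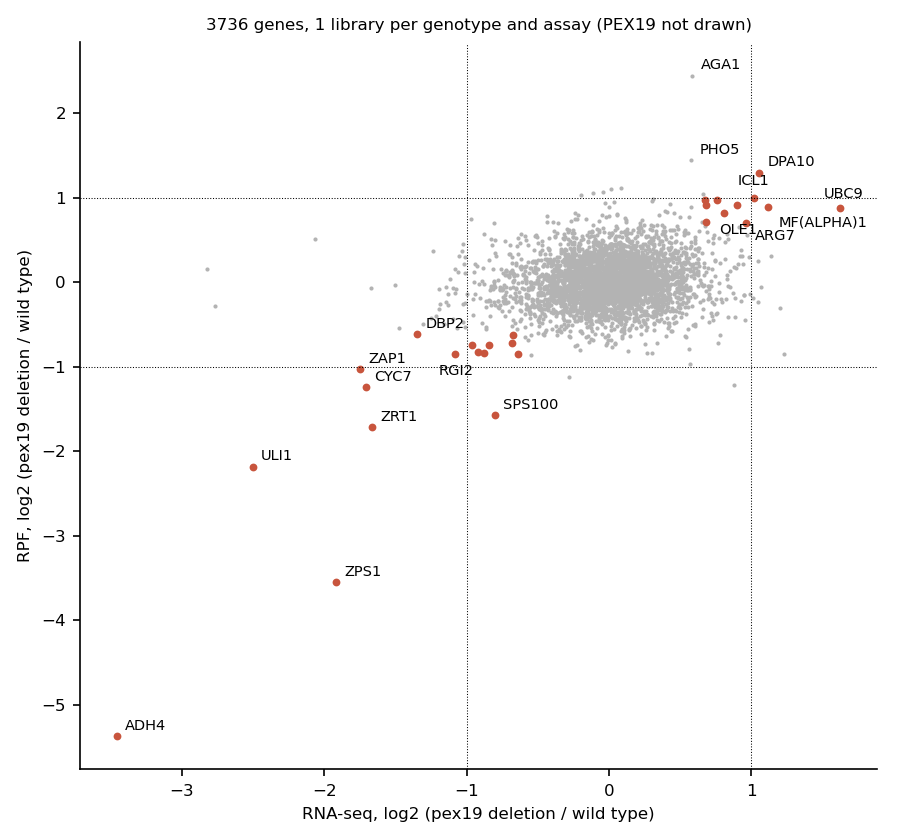
Each point is 1 of 3736 measured genes, with the log2 ratio of pex19 deletion over wild type in RNA-seq on the horizontal axis and in RPF on the vertical axis; dotted lines mark 2-fold. Red points are the genes with the greatest ratios in the same direction in both assays, from ADH4 (−3.46 and −5.37) to DPA10 (1.05 and 1.30), and PEX19 is not drawn.

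The greatest ratios of lower genes in both assays, PEX19 aside, included those of 4 zinc-response genes. Zap1 is the transcription factor that switches on zinc uptake and zinc-sparing genes when the cell is short of zinc, and it activates its own gene. ADH4 (YGL256W, chromosome VII, 15159 to 16307), an alcohol dehydrogenase made at low zinc, had 4748 RNA-seq reads in wild type against 365 in the pex19 deletion, and 4558 and 118 RPF reads. The RNA-seq ratio was −3.46 (−3.62 to −3.31), and the RPF ratio of −5.37 (−5.66 to −5.12) was 41.4-fold. In both assays the msp1 deletion (9321 and 4898 reads) and the double deletion (3615 and 2759) were far above the pex19 deletion. ZRT1 (YGL255W, chromosome VII, 20978 to 22108), the high-affinity zinc transporter of the plasma membrane, was lower by about the same factor in both assays, from 11777 to 3140 RNA-seq reads (−1.67, −1.73 to −1.61) and from 5196 to 1708 RPF reads (−1.72, −1.80 to −1.64). ZAP1 (YJL056C, chromosome X, 330431 to 333073) had 1614 and 407 RNA-seq reads (−1.75) and 289 and 153 RPF reads (−1.03, −1.32 to −0.74). ZPS1, a cell-surface protein made at low zinc (YOL154W, chromosome XV, 34658 to 35407), had 168 and 37 RNA-seq reads (−1.92, −2.50 to −1.42). Its 45 and 3 RPF reads gave a ratio of −3.55 with a wide interval (−6.35 to −2.38). ZPS1 met the RPF minimum only through the msp1 deletion, which had 207 reads, since the double deletion had 37.

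Sequences upstream of these genes hold the zinc-responsive element that Zap1 binds, made of ACCTT and AAGGT around any 1 base. It is shown because ZRT1, ZAP1 and ZPS1, all at least 2-fold lower in both assays, have it. Beside them are 2 targets lower mainly in RNA-seq, ZRT3 (−1.13, with −0.14 in RPF) and ZRG17 (−0.53, with 0.38 in RPF). The letters are those of the R64 reference of strain S288C (RefSeq), from which W303 may differ. Capitals mark matches with at most 1 letter different, 5′ to 3′ on the gene's own strand, from chrVII:20647-20796 for ZRT1 (plus strand), chrX:333182-333241 for ZAP1 (minus), chrXV:34312-34371 for ZPS1 (plus), chrXI:118614-118673 for ZRT3 (plus) and chrXIV:699480-699539 for ZRG17 (minus).
ZRT1: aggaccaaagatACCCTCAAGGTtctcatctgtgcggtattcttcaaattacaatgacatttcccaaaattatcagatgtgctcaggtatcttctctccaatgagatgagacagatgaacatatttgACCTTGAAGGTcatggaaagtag
ZAP1: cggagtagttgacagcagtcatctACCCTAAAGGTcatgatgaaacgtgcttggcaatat
ZPS1: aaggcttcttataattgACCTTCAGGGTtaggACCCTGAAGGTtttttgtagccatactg
ZRT3: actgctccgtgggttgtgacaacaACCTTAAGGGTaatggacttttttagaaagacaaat
ZRG17: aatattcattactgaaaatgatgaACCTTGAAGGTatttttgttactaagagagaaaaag
Counted from 1 at the 5′ end of the element, the first ZRT1 match and the ZAP1 match carry T4C, the ZRT3 match A8G, and the ZPS1 matches A8G and T4C, while the second ZRT1 match and the ZRG17 match are exact. An exact element on either strand lay within 500 bases before the start codon of 9 of 5988 genes (0.15%), and one with at most 1 letter different before 118 (1.97%). Of the 21 listed Zap1 targets 10 had such a match, and ADH4 had none in this window. The 82 measured genes with a match had median ratios of −0.06 in RNA-seq and 0.04 in RPF, against 0.01 and 0.01 over all genes.

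Not every Zap1 target was low. Of the 21 listed, 15 were measured, with 12 lower in RNA-seq (median ratio −0.53) and 10 lower in RPF (−0.14), and 8 were lower in both where 25.9% of all genes were. ZRT3, which releases zinc from the vacuole, had 1310 RNA-seq reads in wild type against 506 in the pex19 deletion (−1.13), but its RPF reads were 179 and 176 (−0.14). ATG41 (ICY2), a gene of autophagy, had 121 and 41 RNA-seq reads (−1.30) and 77 and 59 RPF reads (−0.49). ZRG17, of zinc transport into the endoplasmic reticulum, was −0.53 in RNA-seq and 0.38 in RPF. These 3 were thus lower in mRNA than in footprints, unlike ADH4. The low-affinity transporter gene ZRT2 was −0.04 and 0.49, the vacuolar zinc importer gene ZRC1 0.05 and −0.06, and the membrane receptor-like gene IZH1 0.39 and 0.58. Of the 6 targets below the count minimum 3 were well read in RNA-seq and near 0 there, namely MNT2 with 596 and 477 reads (−0.08), EKI1 with 254 and 214 (−0.01) and IZH2 with 164 and 138 (−0.01). In RPF, IZH2 had 17 and 52 reads (1.44). The others were sparse in both assays. YOR387C had 9 and 2 RNA-seq and 9 and 1 RPF reads, and VEL1 25 and 13 RNA-seq and 2 and 2 RPF reads. IZH4 went the other way, with 35 and 57 RNA-seq (0.92) and 7 and 20 RPF reads (1.27). ADH1, the abundant zinc-containing alcohol dehydrogenase, went the other way from ADH4, from 12463 to 16055 RNA-seq reads (0.60, 0.57 to 0.64) and from 12157 to 17322 RPF reads (0.40, 0.36 to 0.43).

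**Figure D2:**
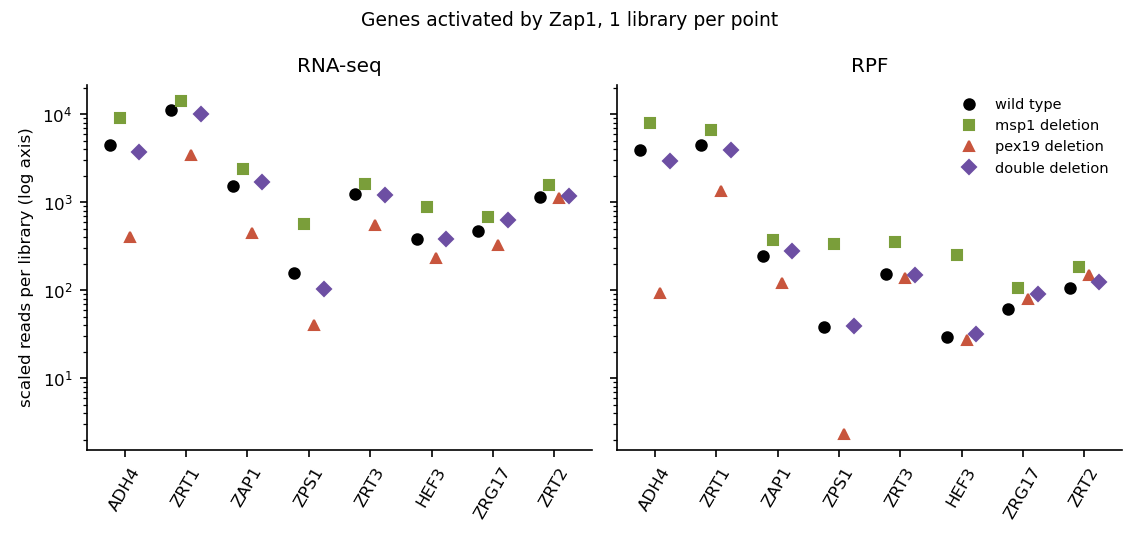
Scaled reads (logarithmic axis) of 8 Zap1 targets in RNA-seq (left) and RPF (right), 1 point per library, with the genotype by symbol. The pex19 deletion is the lowest library for ADH4, ZRT1, ZAP1 and ZPS1 in both assays. It is also the lowest for ZRT3 and HEF3 in both, narrowly in RPF, and for ZRG17 and, narrowly, ZRT2 in RNA-seq only. The msp1 deletion is the highest for all 8, and ZPS1 and HEF3 met the RPF count minimum only through it.

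Outside zinc, few genes were low in both assays. CYC7 (YEL039C), the isoform of cytochrome c made mainly at low oxygen, had 153 and 39 RNA-seq reads in wild type and the pex19 deletion (−1.71) and 198 and 90 RPF reads (−1.24, −1.63 to −0.89). In the msp1 deletion, which keeps PEX19, CYC7 was 0.24 over wild type in RNA-seq but −0.91 in RPF. The double deletion over the msp1 deletion was −0.81 and 0.63 for it. Of 14 listed hypoxic genes only 4 were measured. The others among them did not follow CYC7, with HEM13 of haem synthesis at 0.41 and −0.20, the repressor gene ROX1 at 0.13 and 0.12, and OLE1 higher, as described below. ULI1 (YFR026C), a gene known as induced by stress of the endoplasmic reticulum, had 420 and 62 RNA-seq reads (−2.50) and 67 and 15 RPF reads (−2.18, −3.19 to −1.45). The next 10 genes by the smaller of their ratios were moderately lower. They were RGI2, known to be induced in respiratory growth (−1.08 and −0.85), the endosomal SNARE gene SYN8 (−0.88 and −0.83), BDP1 of RNA polymerase III initiation (−0.92 and −0.83), the spore wall gene SPS100 (−0.80 and −1.58), the prefoldin gene YKE2 (−0.96 and −0.75), CRG1 (−0.84 and −0.74), the S-methylmethionine permease gene MMP1 (−0.68 and −0.72), YGK1 (−0.64 and −0.84), the DNA repair gene MGT1 (−0.67 and −0.62) and the RNA helicase gene DBP2 (−1.35 and −0.61). Reads behind them were few, from 60 to 266 RNA-seq and 42 to 174 RPF reads in the pex19 deletion. In RPF the msp1 deletion, which keeps PEX19, was also below wild type for YKE2 (−1.27), YGK1 (−1.39), BDP1 (−0.63) and DBP2 (−0.53). The same held for MGT1 (−0.51), CRG1 (−0.40) and SYN8 (−0.39), whereas RGI2 (0.71), SPS100 (1.13) and MMP1 (0.31) were above wild type there. SPS100 overlaps a non-coding RNA gene on the opposite strand over 946 nt, and the sources used here do not say whether strand was used in counting.

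Several genes of the glyoxylate cycle, ICL1, CIT2 and MDH2 foremost, were higher in both assays. ICL1 (YER065C, chromosome V, 285241 to 286914), isocitrate lyase, the enzyme that opens the cycle, had 4586 RNA-seq reads in wild type against 7879 in the pex19 deletion, and 2671 and 5778 RPF reads. Its ratio was 1.02 (0.97 to 1.07) in RNA-seq and 0.999 in RPF (0.93 to 1.07), at the 2-fold limit. CIT2 (YCR005C, chromosome III, 120946 to 122328), the peroxisomal citrate synthase, had 2730 and 4313 RNA-seq reads (0.90, 0.83 to 0.97) and 1267 and 2587 RPF reads (0.92, 0.82 to 1.01). For both genes the pex19 deletion was the highest of the 4 libraries in each assay. MDH2, the cytosolic malate dehydrogenase, had 451 and 614 RNA-seq reads (0.68) and 255 and 522 RPF reads (0.92). MLS1, malate synthase, had 3984 and 4432 RNA-seq reads (0.39) and 1365 and 2153 RPF reads (0.54), and ACS1, which makes acetyl-CoA from acetate, was 0.36 and 0.49. In the msp1 deletion, which keeps PEX19, ACS1 was 0.45 and 0.53 over wild type, MLS1 0.11 and 0.59, and MDH2 0.33 and 0.28. The steps toward glucose did not share this: PCK1, which makes phosphoenolpyruvate, was −0.39 and −0.20, and FBP1, fructose-1,6-bisphosphatase, −0.02 and −0.02. ACO1, aconitase, the most deeply read gene of the list with 24465 and 21286 RNA-seq reads, was 0.04 and 0.05, the succinate carrier gene SFC1 −0.03 and 0.13, and IDP2, the cytosolic isocitrate dehydrogenase, 0.05 and −0.02. Of the 10 genes of both pathways 7 were higher in RNA-seq (median ratio 0.21) and 7 in RPF (0.31), 6 of them in both where 28.1% of all genes were, and 3 by 1.5-fold in both. Their known activator gene SIP4 was 0.30 in RNA-seq and, from 42 and 90 reads, 0.97 in RPF. With 24 and 57 RPF reads in the msp1 and double deletions, SIP4 met the count minimum only through the pex19 library. The activator genes CAT8 and ADR1 lay between −0.12 and 0.04 in both assays.

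Some enzymes that feed or drain acetyl-CoA were also higher. Among 11 genes of alcohol and aldehyde oxidation and acetyl-CoA synthesis 9 were higher in RNA-seq (median ratio 0.32) and 8 in RPF (0.19). In both assays 7 of the 11 were higher, where 28.1% of all genes were. ADH2, the alcohol dehydrogenase that oxidises ethanol, had 2941 and 4122 RNA-seq reads (0.73, 0.66 to 0.79) and 3719 and 5135 RPF reads (0.35, 0.29 to 0.41). CAT2, carnitine acetyltransferase, which passes acetyl groups between compartments, had 2064 and 2475 RNA-seq reads (0.50) and 399 and 737 RPF reads (0.77, 0.59 to 0.95). DLD3, a lactate dehydrogenase gene that like CIT2 is known as a target of mitochondrial retrograde signalling, was 0.56 and 0.77. Other retrograde genes lay closer to wild type or differed in 1 assay. CIT1 was 0.02 and 0.03, IDH1 −0.10 and −0.03, and PYC1 0.14 and 0.02. Of the signalling components, MKS1 was −0.03 and 0.60 (60 and 99 RPF reads), RTG1 0.45 and −0.23, and RTG3 −0.36 and −0.11. The 12 listed retrograde genes had medians of 0.11 and 0.02.

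Fatty acid synthesis genes, which use acetyl-CoA in the cytosol, were higher and among the most deeply read. ACC1 (YNR016C), acetyl-CoA carboxylase, the committed step, had 24222 RNA-seq reads in wild type against 31161 in the pex19 deletion (0.60, 0.58 to 0.63) and 4554 and 6967 RPF reads (0.50, 0.45 to 0.55). FAS1, one subunit of fatty acid synthase, had 27887 and 30696 RNA-seq reads (0.38) and 5025 and 7386 RPF reads (0.44). FAS2, the other subunit, had 21959 and 26460 (0.51) and 4490 and 6733 (0.47). In each of these 3 genes the pex19 deletion was the highest library of its assay, and both subunits stood at similar ratios. OLE1 (YGL055W), the fatty acid desaturase, had 4083 and 6048 RNA-seq reads (0.81, 0.75 to 0.86) and 1252 and 2383 RPF reads (0.81, 0.72 to 0.91). INO1, which makes inositol phosphate for phosphatidylinositol, was 0.51 and 0.41, and in the msp1 deletion it was 0.45 and 0.49 over wild type. FAA1, a fatty acyl-CoA synthetase of exogenous fatty acids, was instead low in RNA-seq only, with 2783 and 1501 reads (−0.65) against 1380 and 1426 RPF reads (−0.07). Over 15 measured genes of phospholipid and fatty acid synthesis 10 were higher in RNA-seq (median ratio 0.25) and 11 in RPF (0.33). In both assays 8 of the 15 were higher, where 28.1% of all genes were.

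**Figure D3:**
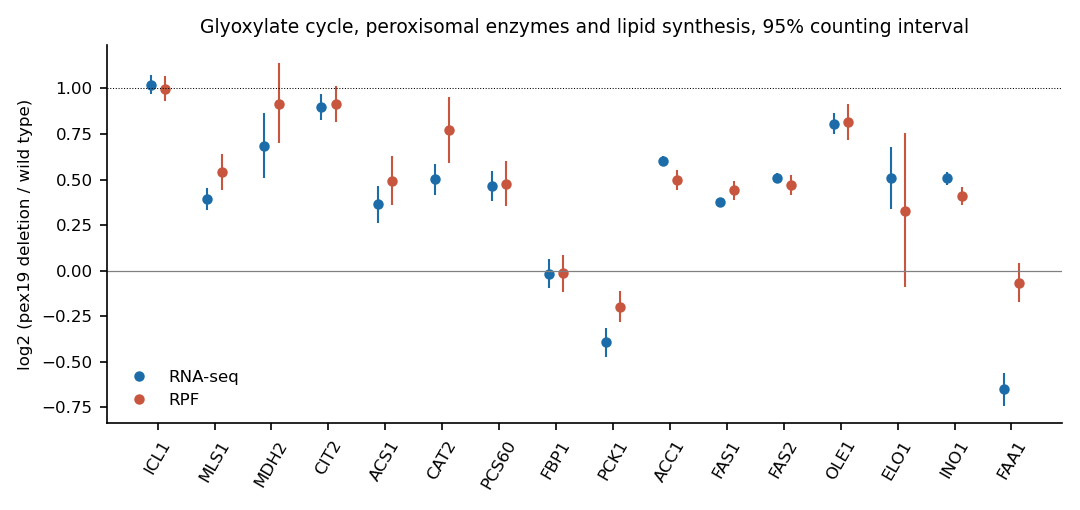
Log2 ratio of pex19 deletion over wild type with its 95% counting interval (bars) for genes of the glyoxylate cycle, peroxisomal enzymes, gluconeogenesis and lipid synthesis, in RNA-seq (blue) and RPF (red), 1 library a side. ICL1 (1.02 and 0.999) is the highest in both assays, PCK1 lies under 0 in both assays, and FAA1 lies under 0 in RNA-seq with an RPF interval that spans 0.

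Peroxisomal genes proper did not all shift in the same direction. Of 24 listed matrix enzymes 19 were measured, 14 higher in RNA-seq (median ratio 0.20) and 13 in RPF (0.10). In both assays 10 of the 19 were higher, where 28.1% of all genes were. The higher ones in both assays included CIT2, CAT2, MLS1 and PCS60, the oxalyl-CoA synthetase gene (0.46 and 0.48). The core beta-oxidation enzymes were not among them. POX1, the acyl-CoA oxidase, was 0.38 and −0.10, FOX2, the multifunctional enzyme, −0.21 and 0.17, and POT1, the thiolase, −1.01 and −0.24 from 153 and 64 RNA-seq and 69 and 63 RPF reads. Catalase CTA1 was 0.55 and −0.17, and the acyl-CoA synthetase gene FAA2 0.11 and 0.76. The assays thus differed in sign for 3 of these 5 genes.

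The peroxins themselves were sparsely read, and 7 of 17 genes of matrix protein import passed the minimum, with an RNA-seq median of −0.17 and an RPF median of 0.12. PEX13 of the docking complex had 306 RNA-seq reads in wild type against 128 in the pex19 deletion (−1.01, −1.33 to −0.72) but 89 and 119 RPF reads (0.30). Its partner PEX14 had 343 and 475 RNA-seq reads (0.71) and 118 and 112 RPF reads (−0.19). The cargo receptor gene PEX5 was −0.17 and −0.01, the AAA ATPase gene PEX6 was −0.23 and 0.24, and its membrane anchor PEX15, a tail-anchored protein, was 0.05 and 0.12. Of 15 genes of the peroxisomal membrane, many of them encoding proteins that PEX19 carries, 6 were measured, with medians of 0.05 and −0.03, the latter above 0 with the TPM values. PEX3, the membrane receptor for PEX19, had 580 and 290 RNA-seq reads (−0.76, −0.97 to −0.56) and 80 and 97 RPF reads (0.16, −0.28 to 0.61). PEX11, of peroxisome division, had 298 and 358 (0.50) and 202 and 211 (−0.05). PEX25, PEX29, PEX30 and the adenine nucleotide transporter gene ANT1 lay between −0.36 and 0.20. No measured member of this list was on the same side of 0 in both assays.

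Most mating genes specific to cells of type a were higher, and more in RPF than in RNA-seq. Cells of mating type a secrete a-factor and express the receptor for α-factor, and the labels do not give the mating type. MFA1, one of the a-factor genes, had 221 and 296 RNA-seq reads (0.66) and 167 and 373 RPF reads (1.04, 0.78 to 1.32), and MFA2, the other, 377 and 542 (0.76) and 289 and 616 (0.97). STE2, the α-factor receptor gene, had 1491 and 2016 RNA-seq reads (0.67, 0.58 to 0.77) and 244 and 518 RPF reads (0.97, 0.75 to 1.20). BAR1, the protease that degrades α-factor, had 474 and 499 RNA-seq reads (0.31) and 154 and 330 RPF reads (0.98). The a-factor exporter gene STE6 was 0.12 and 0.61, the agglutinin subunit gene AGA2 0.33 and 0.60, and the protease gene AXL1 −0.28 and 0.22. AGA2 met the RPF minimum only through the pex19 library, with 86 reads against 52 in wild type and 33 and 36 in the msp1 and double deletions. Of these 7 measured a-specific genes 6 were higher in RNA-seq (median ratio 0.33) and 7 in RPF (0.97). In both assays 6 of the 7 were higher, where 28.1% of all genes were. Against wild type the msp1 deletion was −0.23 and 0.02 for MFA1, 0.48 and −0.26 for MFA2, 0.21 and 0.71 for STE2, and 0.33 and 0.89 for BAR1. It was 0.08 and 0.99 for STE6, −0.20 and 0.27 for AGA2, and 0.03 and −0.47 for AXL1. In a culture a different share of cells of a kind and a different amount of RNA per cell cannot be told apart. Genes of the opposite type were nearly silent at the receptor, since STE3 had 26 and 21 RNA-seq reads. MF(ALPHA)1, the α-factor gene, was nevertheless read, with 121 and 224 RNA-seq reads (1.12, 0.80 to 1.46) and 112 and 225 RPF reads (0.89, 0.56 to 1.23). In the msp1 deletion it was 1.21 and 1.57 over wild type.

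The widest RPF difference of a higher gene was in AGA1, the cell-wall anchor of agglutinin, which had 46 RPF reads in wild type against 277 in the pex19 deletion (2.45, 2.02 to 2.96). Its RNA-seq reads were 398 and 507 (0.59). In the msp1 and double deletions it had 81 and 52 RPF reads, and after scaling the pex19 deletion was the highest and the msp1 deletion the next. SST2 and FUS1, other pheromone-induced genes below the count minimum, had 19 and 66 and 10 and 30 RPF reads. The signalling genes differed less. The kinase gene FUS3 was 0.16 and 0.38, the G-protein genes GPA1 and STE4 −0.01 and 0.40, and 0.26 and 0.45, and the transcription factor gene STE12 −0.14 and 0.42. Others of this list had the smaller ratio in RPF, with STE18 at 0.39 and −0.005, STE5 at 0.26 and 0.03, and FAR1 at 0.31 and 0.20. KAR4 was higher in RNA-seq only (1.05 and −0.24), and PRM5 lower there (−0.64 and 0.08). Of 10 measured genes of this list 7 were higher in RNA-seq (median ratio 0.26) and 8 in RPF (0.29). In both assays 5 of the 10 were higher, where 28.1% of all genes were.

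The pheromone-response element TGAAACA, bound by Ste12, is shown for the genes that differed most, with the element, or its reverse complement, in capitals. The windows are chrIV:1384838-1384897 for MFA1, chrXIV:352193-352252 for MFA2, chrVI:82357-82416 for STE2, chrIX:322132-322191 for BAR1 and chrXIV:703471-703530 for AGA1, all on the plus strand of R64.
MFA1: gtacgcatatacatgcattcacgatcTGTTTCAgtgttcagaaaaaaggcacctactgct
MFA2: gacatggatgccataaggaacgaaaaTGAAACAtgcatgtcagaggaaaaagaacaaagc
STE2: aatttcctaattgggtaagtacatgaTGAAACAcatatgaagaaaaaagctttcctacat
BAR1: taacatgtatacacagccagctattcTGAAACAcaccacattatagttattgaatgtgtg
AGA1: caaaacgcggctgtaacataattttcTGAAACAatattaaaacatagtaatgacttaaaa
Within 500 bases before the start codon, on either strand, 721 of 5988 genes had the element, as did 8 of 8 a-specific and 11 of 15 pheromone-response genes. The 438 measured genes with it had an RNA-seq median of 0.04 and an RPF median of 0.04.

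Amino acid synthesis genes were slightly higher as a group. Gcn4 is the transcription factor that raises them when amino acids run short. Of 48 listed targets 46 were measured, 37 higher in RNA-seq (median ratio 0.20) and 42 in RPF (0.17). In both assays 34 of the 46 were higher, where 28.1% of all genes were. HOM3, aspartate kinase of threonine and methionine synthesis, had 1018 and 1388 RNA-seq reads (0.69, 0.57 to 0.80) and 385 and 686 RPF reads (0.72, 0.54 to 0.90). ARG4, of the last step to arginine, had 1787 and 2419 RNA-seq reads (0.68) and 820 and 1410 RPF reads (0.67). HIS5 was 0.61 and 0.47, TRP3 0.94 and 0.21, and ARG7, a mitochondrial enzyme of arginine synthesis outside the list, 0.96 and 0.70. No listed member was 2-fold higher in both assays. Methionine and sulfate genes, 8 of 20 measured, had medians of 0.14 and 0.10. The Gcn4 element TGACTC is in capitals below, from chrV:258209-258268 for HOM3 and chrVIII:141549-141608 for ARG4, both minus strand of R64.
HOM3: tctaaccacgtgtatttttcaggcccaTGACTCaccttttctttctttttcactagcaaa
ARG4: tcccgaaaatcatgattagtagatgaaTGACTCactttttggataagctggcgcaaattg
Of 5988 genes 758 (12.7%) had the element within 500 bases before the start codon on either strand, and of the 48 targets 36 had it. The 470 measured genes with it had medians of 0.04 and 0.03.

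Mitochondrial lists had medians close to those of all genes, with single members further off. The 16 genes of the tricarboxylic acid cycle had medians of 0.06 and 0.04, with KGD1 at 0.18 and 0.20 and the minor citrate synthase gene CIT3 at 0.46 and 0.35. The 35 nuclear genes for respiratory complexes and ATP synthase had an RNA-seq median of 0.06 and an RPF median of −0.12. In RPF 26 of them were lower, where 49% of all genes were. Their median coding length was 444 nt, and with the length trend removed their RPF median was −0.04. CYC1, the main cytochrome c, was the lowest of these genes in RPF, with 6803 and 4847 reads (−0.60), on 5064 and 4616 RNA-seq reads (0.11). The subunit genes QCR9 (0.09 and −0.50), ATP18 (0.21 and −0.47), ATP16 (0.26 and −0.38) and COX12 (0.19 and −0.35) were likewise lower in RPF only. The external NADH dehydrogenase gene NDE2 was −0.48 and −0.15, and the Rieske protein gene RIP1 −0.27 and −0.11. For 76 mitochondrial ribosomal proteins the medians were 0.06 and −0.04, the latter above 0 with TPM values or with the length trend removed. MRPL25 was −0.66 and −0.48, and MRPL7 was 0.48 and 0.35. Single members were further off in RNA-seq, with RSM19 at 1.01 and −0.18, IMG2 at 0.99 and −0.14, MRPL27 at 0.71 and −0.36, and MRPS8 at −0.70 and 0.08. Mitochondrial import genes, 28 of 29 measured, had medians of 0.04 and −0.00186, both of which changed sign with the scaling. SAM35, of the outer membrane sorting complex, had 43 and 102 RPF reads (1.11, 0.60 to 1.68) on 427 and 383 RNA-seq reads (0.08), and TIM8 was −0.85 and −0.22.

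Tail-anchored proteins are held in a membrane by 1 segment at their C-terminal end, and the 6 genes of those in the outer mitochondrial membrane had an RNA-seq median of −0.22 and an RPF median of −0.03, the latter above 0 with TPM values or with the length trend removed. FIS1, of organelle division, had 778 and 483 RNA-seq reads (−0.45) and 324 and 282 RPF reads (−0.31, −0.55 to −0.08), and TOM22, the import receptor, was −0.37 and −0.22. TOM7 had 210 and 87 RNA-seq reads (−1.02) but 149 and 222 RPF reads (0.46). TOM5 (0.70 and 0.17), TOM6 (−0.06 and 0.17) and GEM1 (0.37 and −0.31) gave no common direction. The GET pathway, which inserts tail-anchored proteins into the endoplasmic reticulum, had medians of −0.09 and 0.10 over 6 genes. Its membrane receptor subunits differed, with GET1 at −0.84 and 0.26 and GET2 at 0.82 and −0.20, and the targeting ATPase gene GET3 at −0.31 and −0.06. Genes of drug resistance and import stress, 5 of 10 measured, had medians of −0.07 and 0.16, with the transporter gene PDR5 at 0.08 and 0.07 and YOR1 at −0.30 and 0.63. The RNA-seq medians of both latter lists turned above 0 with the TPM values.

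Genes of folding in the endoplasmic reticulum were lower, 12 of 14 in RNA-seq (median ratio −0.20) and 10 in RPF (−0.15). In both assays 9 of the 14 were lower, where 25.9% of all genes were. KAR2, the Hsp70 of that compartment, had 13370 and 9192 RNA-seq reads (−0.30) and 3069 and 2707 RPF reads (−0.30). ERO1, the thiol oxidase, was −0.48 and −0.30, and HAC1, the transcription factor of the unfolded protein response, −0.11 in RNA-seq and −0.68 (−0.87 to −0.49) in RPF from 562 and 379 reads. Cytosolic and mitochondrial heat-shock chaperones were split by assay, 14 of 19 higher in RNA-seq (median ratio 0.11) and 14 lower in RPF (−0.14). Of all genes 51.2% were higher in RNA-seq and 49% lower in RPF. Among the chaperones HSP26 was 0.58 and 0.33 and SSA3 −0.16 and −0.44. General stress genes of Msn2 and Msn4, 22 measured, had medians of 0.05 and 0.19, with TKL2 at 0.63 and 0.61 and YGP1 at 0.35 and 0.53, against GRE1 at −0.89 and −0.48.

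Iron and biotin genes were lower. The 5 measured of 17 iron-regulon genes were below wild type in both assays, where 25.9% of all genes were, with medians of −0.41 and −0.37. FET3, the ferroxidase of high-affinity iron uptake, had 2854 and 1689 RNA-seq reads (−0.52, −0.61 to −0.43) and 712 and 582 RPF reads (−0.40, −0.57 to −0.25), and its partner permease gene FTR1 was −0.46 and −0.37. The haem oxygenase gene HMX1 was −0.41 and −0.12, and the copper-handling genes CCC2 and ATX1 −0.12 and −0.32, and −0.12 and −0.37. For biotin, BIO4 had 565 and 323 RNA-seq reads (−0.57) and 490 and 330 RPF reads (−0.68), BIO2 was −0.49 and −0.40, BIO3 0.02 and −0.42, while VHT1, the biotin transporter gene, was −0.26 and −0.40. None of these 9 genes passed 1.5-fold in both assays. Against wild type the msp1 deletion, which keeps PEX19, was −0.23 and −0.39 for BIO4 and −0.57 and −0.18 for BIO2. It was −0.37 and −0.20 for VHT1, and −0.12 and 0.14 for BIO3. The secreted acid phosphatase gene PHO5 had 286 and 362 RNA-seq reads (0.58) and 42 and 126 RPF reads (1.45, 0.96 to 2.01), while the polyphosphate synthesis genes VTC1, VTC3 and VTC4 were 0.05 to 0.20 in RNA-seq and −0.44 to −0.28 in RPF. Of the glycerol genes, STL1, the glycerol importer, was 0.39 and 0.65 and GCY1, a glycerol dehydrogenase, 0.40 and 0.51, with the kinase gene GUT1 at −0.12 and 0.10 and GUT2 at −0.16 and −0.05. Of 12 hexose transport genes 9 were below the count minimum in at least 1 assay, and the 3 measured lay between −0.36 and 0.29, while HXT6 shares 99.8% of its coding sequence with HXT7.

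**Figure D4:**
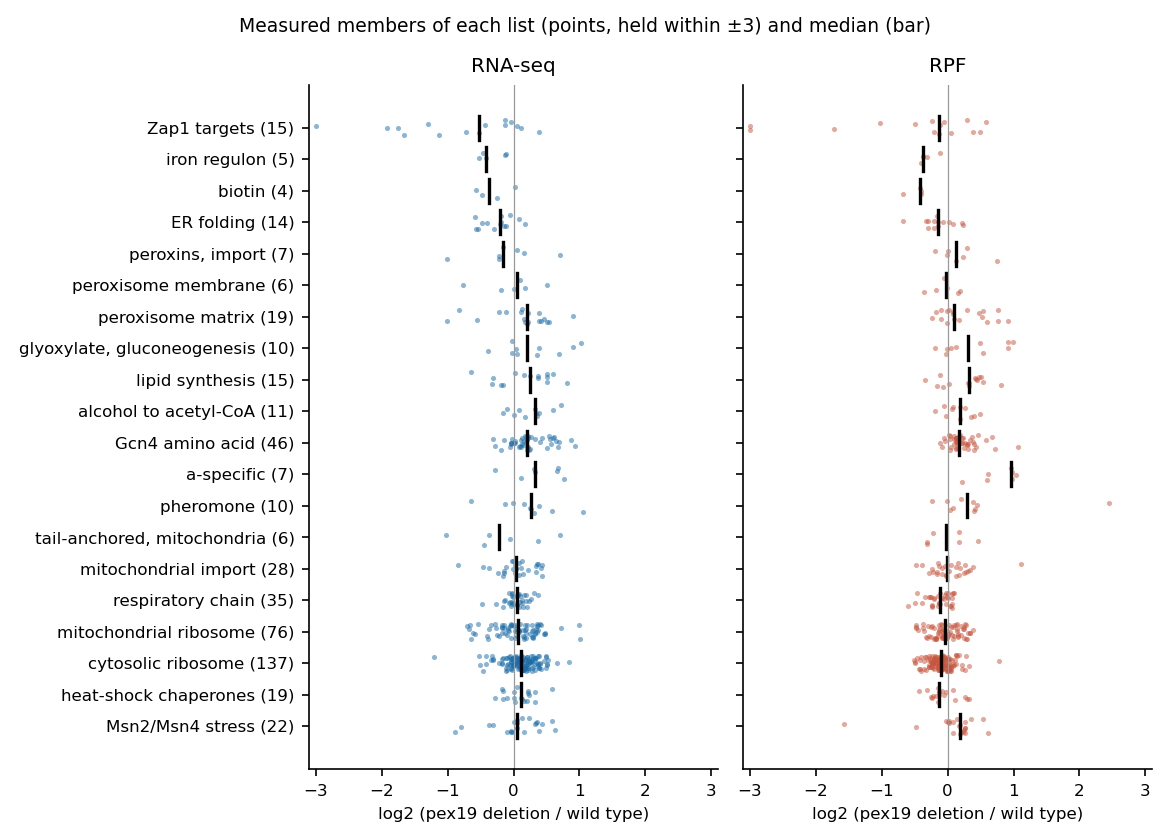
Log2 ratio of pex19 deletion over wild type for the measured members of 20 gene lists (points, with values beyond 3 drawn at 3) and their medians (bars), in RNA-seq (left) and RPF (right); the number measured is in brackets. Zap1 targets reach furthest to the left in both assays, a-specific genes have the highest RPF median (0.97), and most lists lie within 0.3 of 0.

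The ratios of the assays were only loosely related across genes. Across 3736 genes without PEX19 Pearson's r between the ratios of the assays was 0.213, and 54.0% of all genes had the same sign in both. Among 345 genes with a mean of at least 1000 RPF reads r was 0.723, but 0.507 without ADH4, which was left out after its values were seen. Spearman's rho there was 0.250, and 53.9% of these genes had the same sign in both assays. These are correlations across genes, which are not replicates and share libraries. Of the 44 genes 2-fold lower in RNA-seq, PEX19 aside, 32 were also below 0 in RPF, with a median RPF ratio of only −0.25. The 38 that passed in RNA-seq alone were shallower than most, with a median of 236 wild-type reads against 676 over all genes. PFD1, a prefoldin gene, is an example, with 115 and 13 RNA-seq reads but 92 and 111 RPF reads.

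Translational efficiency, the RPF ratio over the RNA-seq ratio, was at least 2-fold lower for 42 genes (1.12%) and higher for 57 (1.53%). Among genes with at least 50 reads in each of the 4 libraries the lowest log2 values were −2.10 for MIN10, −2.07 for the INO80 chromatin gene IES5 and −1.91 for ADH4. MIN10 had 141 and 221 RNA-seq reads and 285 and 132 RPF reads, so mRNA and footprints lay on opposite sides of wild type. Of the lowest 5, which also hold MEO1 and the signal peptidase gene SPC1, ADH4 was the only one lower in both assays. The highest were 1.61 for LGE1, 1.51 for SVP26, 1.48 for TOM7, 1.47 for MAK11 and 1.45 for IMP4, the last 2 of ribosome biogenesis. LGE1 had 351 and 126 RNA-seq reads against 76 and 107 RPF reads, and all 5 were lower in RNA-seq.

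Coding length moved with the ratios. Genes under 300 nt had a median RPF ratio of −0.08 and those of at least 2400 nt one of 0.07, while the RNA-seq medians went from 0.05 to −0.03. Spearman's rho with coding length over 3735 genes was 0.207 in RPF and −0.0889 in RNA-seq. The 137 cytosolic ribosomal protein genes, with a median coding length of 432 nt, had an RNA-seq median of 0.11, with 99 higher, and −0.11 in RPF, with 106 lower. Their RPF median turned above 0 once the length trend was removed, so no direction can be given for them. RPL15B was −1.21 and −0.40 and RPS6B 0.49 and 0.13, but they share 93.3% and 99.2% of their coding sequence with RPL15A and RPS6A, and single values of such copies are uncertain.

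Loss of PEX19 was also measured in 4 other libraries, where the double deletion is set against the msp1 deletion. There 9 genes (0.241%), PEX19 among them, were 2-fold lower in both assays and 0 (0%) were 2-fold higher. The lowest total of reads belonged to the msp1 RPF library, and the spread of the RPF ratios was 0.435 against 0.274 for the pex19 deletion over wild type. Of the 16 genes named above as lower in both assays, PEX19 aside, 8 were lower in both here too, and 2 were higher in both. ADH4 had 9321 and 3615 RNA-seq reads (−1.29) and 4898 and 2759 RPF reads (−1.44) in the msp1 and double deletions, and ZPS1 594 and 103 (−2.44) and 207 and 37 (−3.06). ZRT1 was −0.49 and −0.75, ZAP1 −0.48 and −0.38, ULI1 −0.40 and −0.62, and SPS100 −1.54 and −2.06. These 6 genes were thus below 0 in both backgrounds, with smaller ratios for ADH4, ZRT1, ZAP1 and ULI1 where MSP1 was missing. The msp1 deletion, the reference there, was itself above wild type for all 6, with ADH4 at 1.02 and 1.03, ZPS1 at 1.86 and 3.1, ZRT1 at 0.35 and 0.56, ZAP1 at 0.66 and 0.58, ULI1 at 0.82 and 1.22, and SPS100 at 0.52 and 1.13. Against wild type the double deletion was above 0 for ZAP1 (0.18 and 0.20) and ULI1 (0.42 and 0.60). It was −0.14 and −0.19 for ZRT1, −0.27 and −0.41 for ADH4, −0.58 and 0.03 for ZPS1, and −1.02 and −0.94 for SPS100.

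Most of the higher genes did not repeat in this comparison. Of 11 genes, 2 (UBC9 and ICL1) were higher in both assays without MSP1 as well, and 6 were lower in both. ICL1 was 0.32 and 0.14, CIT2 −0.03 and −0.21, OLE1 −0.14 and −0.15, and STE2 −0.39 and −0.52. For the 6 that were lower, the reference, the msp1 deletion, was itself above wild type. It was 1.21 and 1.57 for MF(ALPHA)1, 0.92 and 0.31 for DPA10, 0.36 and 0.57 for CIT2, 0.39 and 0.36 for OLE1, 0.21 and 0.71 for STE2, and 0.14 and 0.22 for HOM3. Against wild type the double deletion was above 0 in both assays for DPA10 (0.79 and 0.22), CIT2 (0.33 and 0.36) and OLE1 (0.25 and 0.21). MF(ALPHA)1 was 0.29 and −0.48 there, STE2 −0.19 and 0.19, and HOM3 −0.22 and 0.07. For the double deletion over the msp1 deletion, measured a-specific genes had medians of −0.33 and −0.48, Gcn4 targets −0.04 and −0.05, and glyoxylate and gluconeogenesis genes 0.02 and −0.07. Iron (−0.38 and −0.46) and biotin genes (−0.67 and −1.06) were lower in this background too, with BIO4 at −1.10 and −1.10. Against the wild type, which is shared with the pex19 comparison, FET3 was −0.56 and −0.74 without MSP1 and −1.08 and −1.20 without both genes.

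**Figure D5:**
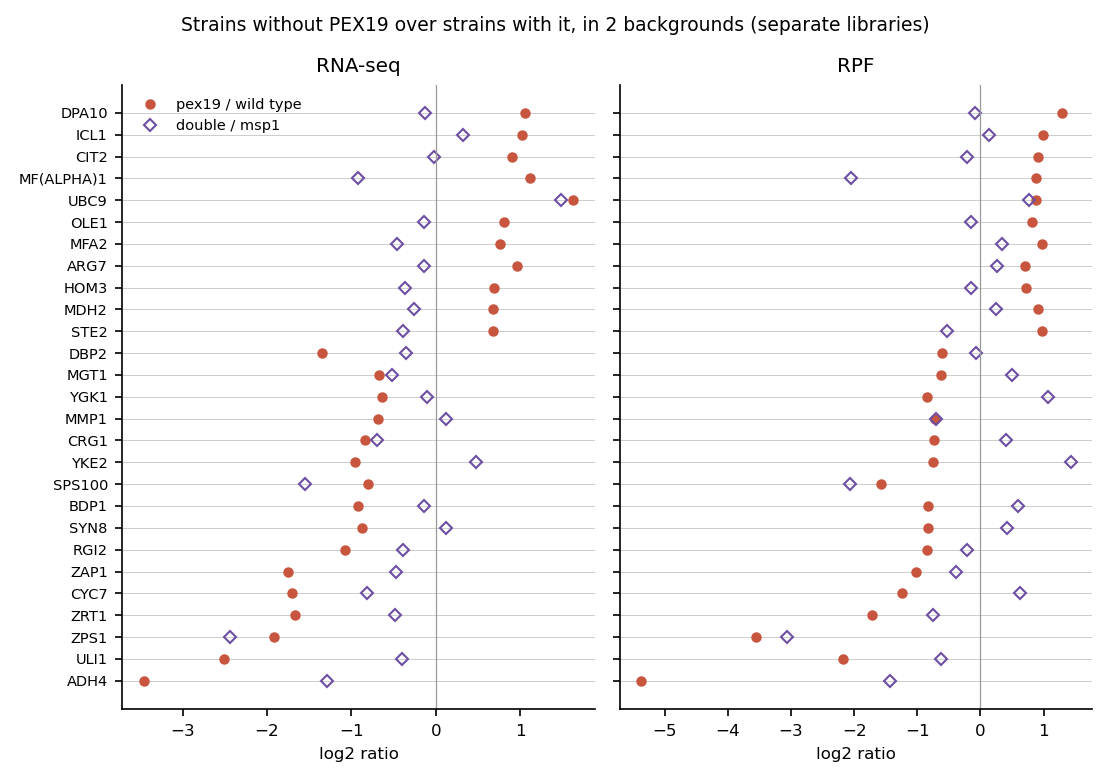
Log2 ratio of strains without PEX19 over strains with it for the 27 genes that differed most in both assays, PEX19 aside, in the wild-type background (filled circles) and in the msp1 background (open diamonds), for RNA-seq (left) and RPF (right), 1 library a side. ADH4, ZPS1, ZRT1 and ZAP1 are left of 0 in both backgrounds, whereas among the higher genes only UBC9 and ICL1 are right of 0 in every case.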

How the data were processed

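RNA-seq and RPF libraries of 4 yeast genotypes, 8 in all, were used, and groups follow the sample titles. Per the labels' protocols, RNA was depleted of ribosomal RNA and fragmented to 19 to 40 nt, RPF of 19 to 33 nt came from RNase I-treated monosomes in cycloheximide and tigecycline, and reads were 60 nt, single-end. Cutadapt 1.8, STAR 2.5 and the R64 (sacCer3) build were used, per the submitters' processing notes. For the counting tool, its use of strand and its handling of shared reads, nothing was given in the sources used here. The authors' deposited read counts per gene are whole numbers with a minimum of 1, and an unread gene is listed at 1. The authors' deposited TPM values, per the file headers, served as an alternative. The deposited RPM and RPKM columns of 1 library were not used. The 2 blank lines that end each table of the double deletion were dropped. The added spike oligos were not used, so all values are relative within an assay.

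TMM (edgeR 4.0.16, R 4.3.3) scaled the counts of each assay over genes with a mean of at least 50 reads, and log2 ratios carry a pseudocount of 1 read scaled to the library. Intervals are exact (Clopper-Pearson, conditional binomial, 95%) and hold for counting error only, as does the limit of 3 reads set for a gene with none, because PCR copies were not marked by molecular identifiers. With 1 library per genotype and assay no test was possible, so called means past the stated fold. The ratio and its interval were tested on simulated data. Gene names, positions and upstream sequences come from the R64 reference (RefSeq), which held 5994 of the 6668 genes. Coding sequences were searched for near-identical copies with blastn 2.17.0 (at least 90% identity over 100 nt).

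Named genes were PEX19, MSP1 and the neighbours of PEX19, genes 2-fold in both assays, the next 10 per direction by the smaller ratio, 5 per direction by translational efficiency, all measured members of lists of at most 10 measured genes and up to 4 of longer lists. The further list members named, and the genes drawn in the plots of zinc and of lipid genes, were chosen after their values were seen, as were PFD1, SST2, FUS1 and YOR387C. Members and all 32 lists were chosen with earlier results of these data known. Alternatives were library totals, TMM over all listed genes, DESeq2 1.42.0 size factors, TPM, pseudocounts of 0.1 and 5, read minimums of 10, 200 and none, and removal of the trend with coding length. The values of 1 listed gene are not reported here.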

Additional observations from a re-analysis of the deposited data

Results flagged for a closer look

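Each of 8 genes had ratios of one sign in both assays for the pex19 deletion over wild type and of the opposite sign in both assays for the double deletion over the msp1 deletion. The difference between backgrounds was not tested, since each side is 1 library per assay. Of genes lower in the pex19 deletion, SYN8 in the msp1 background was 0.11 in RNA-seq and 0.43 in RPF, and YKE2 was 0.48 and 1.43, the latter from 22 RPF reads in the msp1 deletion and 92 in the double deletion. Of genes higher in the pex19 deletion, MF(ALPHA)1 was −0.92 and −2.06, with 176 and 64 RPF reads, and STE2 was −0.39 and −0.52. HOM3 was −0.37 and −0.15, CIT2 −0.03 and −0.21, OLE1 −0.14 and −0.15, and DPA10 −0.13 and −0.0860. The msp1 deletion, the reference here, was itself below wild type in both assays for SYN8 and YKE2, and above it in both for the others.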

How the results depend on the processing

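The 7 genes 2-fold lower in both assays were the same genes under library totals, TMM over all listed genes, DESeq2 size factors, both other pseudocounts and removal of the length trend, an alternative chosen after seeing the data. With TPM values ZAP1 dropped out. ICL1 joined DPA10 as 2-fold higher in both, for 2 genes, under TPM and under TMM over all listed genes. TPM also gave 27 genes lower and 26 higher by RNA-seq, with 15 higher in RPF. The counts otherwise followed the read minimum, which sets how many genes enter. With a mean of at least 10 reads 5080 genes entered, with 2 higher in both assays, 147 lower and 45 higher by RNA-seq, 24 and 56 in RPF, and 105 and 243 in translational efficiency. With at least 200 reads 1453 entered, with 3 lower in both (ADH4, ZRT1, ZAP1), 5 and 2 in RNA-seq, 3 and 1 in RPF, and 4 and 3 in translational efficiency. With no minimum all 6668 entered, with 27 lower and 11 higher in both, 508 and 184 by RNA-seq, 70 and 103 in RPF, and 279 and 621 in translational efficiency. No result reversed direction among called values. Of the recomputed ratios of named genes 3351 stayed within their counting interval and 75 moved beyond it, 51 of them with TPM, and of the list medians 79 moved by over 0.1 and 555 did not; the cause was not tested.

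No paired analysis was possible because the labels give no replicate numbers and each group has 1 library. For the same reason no replicate could be left out. Depth limits the genes under about 100 reads, of which the RPF ratios of ZPS1, AGA1, SAM35 and PHO5 rest on 3 to 46 reads in 1 of their libraries.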
